A study of Mus musculus with 24 samples.

Results

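The RNA of mouse spinal cord was compared between day 3 after spared nerve injury and sham surgery, using the 3 input libraries of each group (6 of the 24 libraries of the series, which has 12 input and 12 m6A-enriched libraries). In the injured mice the common peroneal and tibial nerves were tied and cut beyond the tie; in the sham mice the sciatic nerve and its branches were exposed and left whole. Sham libraries are labelled day 3 as well, so both groups share the time, the anaesthesia and the skin and muscle wound. Strain, sex and age, the side or level of cord taken, and whether each library came from a mouse of its own are not stated in the labels; if none did, the p-values measure technical spread only. Levels were given as FPKM, fragments per kilobase of transcript and scaled by library size, for 32884 genes, and the 15543 genes with a mean of at least 0.5 FPKM over the 6 libraries were tested.

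A cut axon sends stress signals back to its cell body, and motor neurons, whose cell bodies lie in the cord, respond with a growth programme led by transcription factors such as Atf3. Microglia, the resident macrophages of the cord, are drawn to the injured neurons and to the terminals of injured sensory fibres, where they take up debris and tag synapses with complement. This response begins within days of a nerve injury and is studied as a part of neuropathic pain.

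Sham library 3 stood apart from the other 5 libraries, so differences are given with all 6 libraries and without it. A pair of values in brackets after a gene is its log2 difference, first without sham library 3 and then with all 6 libraries. Summed FPKM was 180340 to 201358 in the 6 libraries, and the sequencing depth is unknown because only FPKM was used. Across genes, log2 levels correlated at r = 0.979 to 0.987 within a group when sham library 3 was left out, at 0.979 to 0.984 between the groups, and at 0.924 to 0.935 for pairs with sham library 3. Over the genes of at least 200 FPKM, the ratio of 2 libraries of 1 group had a spread of 1.42 to 1.51%, against 8.04 to 8.45% between groups and 31.1 to 32.1% for pairs with sham library 3. Libraries of a group were thus very alike, apart from sham library 3. A few RNAs also separated it. Rn7sk, the unadenylated 7SK small nuclear RNA, was at 15.8, 67.6 and 15.3 FPKM on day 3 and at 192, 161 and 6.44 FPKM in sham libraries 1 to 3. Gm23935 was at 515, 502 and 495 against 3891, 3812 and 1.43 FPKM, and Lars2 at 18.3, 18.7 and 18.1 against 108, 108 and 1.11 FPKM. Neuron and Hox genes of the cord were present in all 6 libraries, with 575 to 578 FPKM summed over 10 markers on day 3 and 561 to 577 in sham.

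Few genes passed the test with all libraries. Differences were fitted with limma on log2(FPKM + 0.5), a scale that understates the change of low genes, and a gene passed at a Benjamini-Hochberg adjusted p below 0.05. With all 6 libraries 2 genes were higher on day 3 (0.0129% of those tested) and 0 were lower (0%), while 765 (4.92%) had an unadjusted p below 0.05, of which 522 (3.36%) were higher and 243 (1.56%) lower. Without sham library 3, 289 genes were higher (1.86%) and 222 lower (1.43%). Most of these differences were small: 226 of the 289 and 183 of the 222 were under 0.5 on the log2 scale, and 22 and 14 reached 1. Among the 14 were Gm23935 (-2.93, 0.72) and Lars2 (-2.52, -0.50), with limma adjusted p of 9.19e-07 and 1.66e-06 without sham library 3. These RNAs thus separated day 3 from sham libraries 1 and 2 as well as sham library 3 from the rest, and the cause was not tested. A fit of all 12 input libraries of the 4 groups, sham library 3 included, called 8 genes higher (0.0515%) and 1 lower (0.00643%): Atf3, Sprr1a, Ccl7, Ly86, Dbp, Bin2, S100a11 and Tmem119 rose, and Slc5a7 fell. The same fit without sham library 3 and day 7 library 3, which resembled it, called 623 higher (4.01%) and 479 lower (3.08%).

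The genes higher on day 3 mostly lay above sham library 3 too, and the lower ones mostly did not lie below it. Of the 289 genes called higher without sham library 3, 239 (82.7%) had a day 3 mean above that library, as had 54.4% of all genes tested; of the 222 called lower, 94 (42.3%) had a day 3 mean below it, as had 45.6% of all genes tested. Values of all 6 libraries did not overlap for 236 (81.7%) of the higher and 85 (38.3%) of the lower calls, against 13.4% and 7.49% of all genes in those directions. Sham library 3 was not used to make these calls, but the day 3 libraries are shared by the calls and both measures. The non-overlap measure also holds sham libraries 1 and 2, from which the calls were made. The selection itself thus favoured non-overlap, so its comparison with all genes cannot show an excess. Levels differed too, with median means of 35.9 FPKM for the higher, 14.8 for the lower and 4.50 for all genes tested. Leaving out day 3 library 1 or day 3 library 2 beside sham library 3 left 57 and 112 calls, of which 56 and 99 were among the 511.

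**Figure D1:**
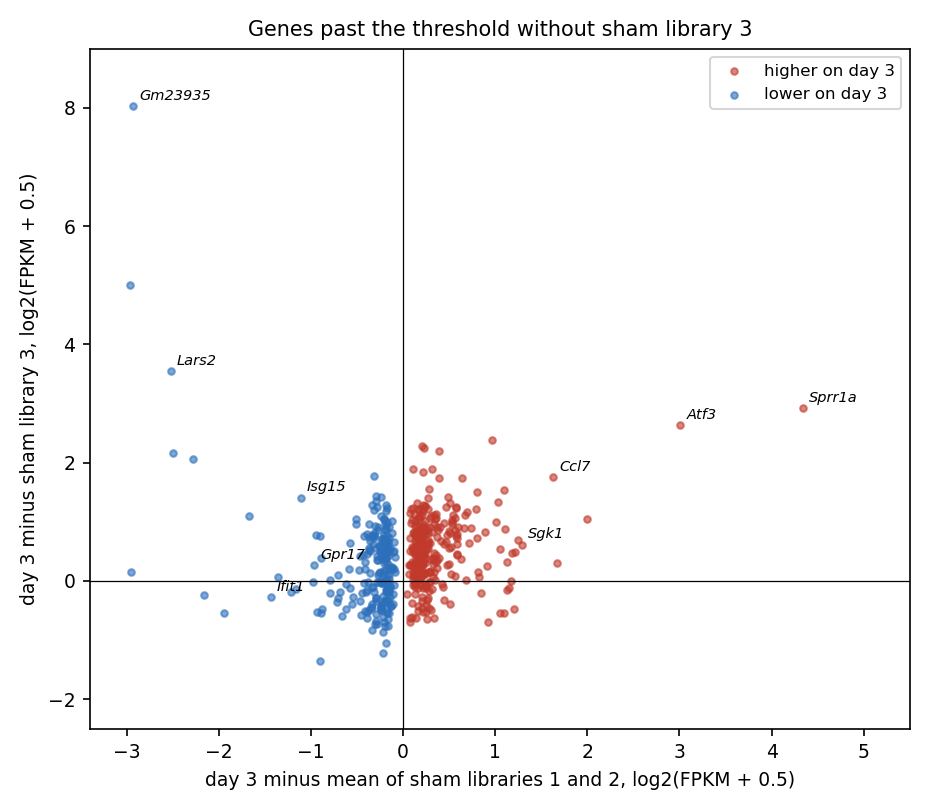
Each point is 1 of the genes called without sham library 3 (mt-Ts1, listed at 0 in all sham libraries, is left out). The x axis gives day 3 minus the mean of sham libraries 1 and 2, the y axis day 3 minus sham library 3, both in log2(FPKM + 0.5); of the red points (called higher) 82.7% of the genes lie above 0 on the y axis, of the blue ones (called lower) 42.3% lie below it.

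The injury-induced transcription factor Atf3 was the gene with the clearest rise. Atf3 (1:191170296-191218039, minus strand; coordinates as deposited) was at 6.49, 6.29 and 6.04 FPKM on day 3 and at 0.353, 0.329 and 0.585 FPKM in sham, in the order of libraries 1 to 3 as throughout. All 3 day 3 libraries were far above all 3 sham libraries. The difference was 2.89 ± 0.13 (SE, log2(FPKM + 0.5); limma adjusted p = 0.00333) with all 6 libraries and 3.01 ± 0.06 (adjusted p = 9.43e-05) without sham library 3. With 2 libraries in the day 3 group its adjusted p was 0.0707 to 0.0779 by limma, depending on the library left out.

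Sprr1a, a small proline-rich protein that neurons make after axon injury, was at 15.98, 14.9 and 14.8 FPKM on day 3 and at 0.416, 0.158 and 1.57 FPKM in sham. It was the largest difference of a named gene that was above 0 in both groups, 4.34 ± 0.14 without sham library 3 (limma adjusted p = 0.000446) and 3.87 ± 0.40 with it (adjusted p = 0.168). The groups did not overlap; sham library 3 was the highest of the sham libraries and lay far below day 3. Gal, the neuropeptide galanin, was at 10.8, 9.34 and 11.6 FPKM on day 3 against 4.77, 5.53 and 1.62 FPKM in sham, a difference of 0.97 ± 0.10 without sham library 3 (adjusted p = 0.0184) and 1.44 ± 0.39 with it (adjusted p = 0.728). Tubb6, a beta-tubulin, was at 2.51, 2.54 and 2.17 against 1.06, 0.787 and 0.646 FPKM. Its difference was 1.03 ± 0.12 without sham library 3 (limma adjusted p = 0.0191) and 1.13 ± 0.14 with it (adjusted p = 0.334).

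Of 23 genes listed for axotomised neurons, 21 were tested. Against 1.86% of all genes called higher and 1.43% lower, 8 of them rose and 0 fell without sham library 3. Their median difference was 0.13 (0.30 with all 6 libraries) beside 0.02 (0.03) over all genes, so the typical member moved little. Beside those above, the growth cone protein Gap43 was at 92.1, 90.5 and 91.5 against 78.3, 79.0 and 65.4 FPKM, the stress gene Gadd45a at 6.94, 6.14 and 7.36 against 4.79, 4.55 and 4.46 FPKM, and the endopeptidase Ecel1 (0.21, 0.46) and the neuronal tubulin Tubb3 (0.092, 0.46) also passed without sham library 3. All 8 lay above sham library 3 as well. S100a11, a calcium-binding protein of the S100 family, was at 7.83, 8.36 and 8.43 FPKM on day 3 and at 4.40, 4.57 and 4.77 FPKM in sham (0.80 ± 0.05 without sham library 3, adjusted p = 0.00424; 0.78 ± 0.08 with it, adjusted p = 0.168); it was the only one of 15 tested S100 and annexin genes to pass.

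Sensory neurons of the dorsal root ganglia express several of the same genes. Of the ganglion markers, the sodium channels Scn10a and Scn11a stayed under 0.05 FPKM, while Pou4f1 (1.35 to 1.79 FPKM) and Isl2 (0.520 to 1.22 FPKM) were the highest. The 9 markers in the table summed to 2.87 to 3.55 FPKM on day 3 and to 2.36 to 3.59 FPKM in sham. In whole cord, more RNA per cell and more cells of a type cannot be told apart.

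**Figure D2:**
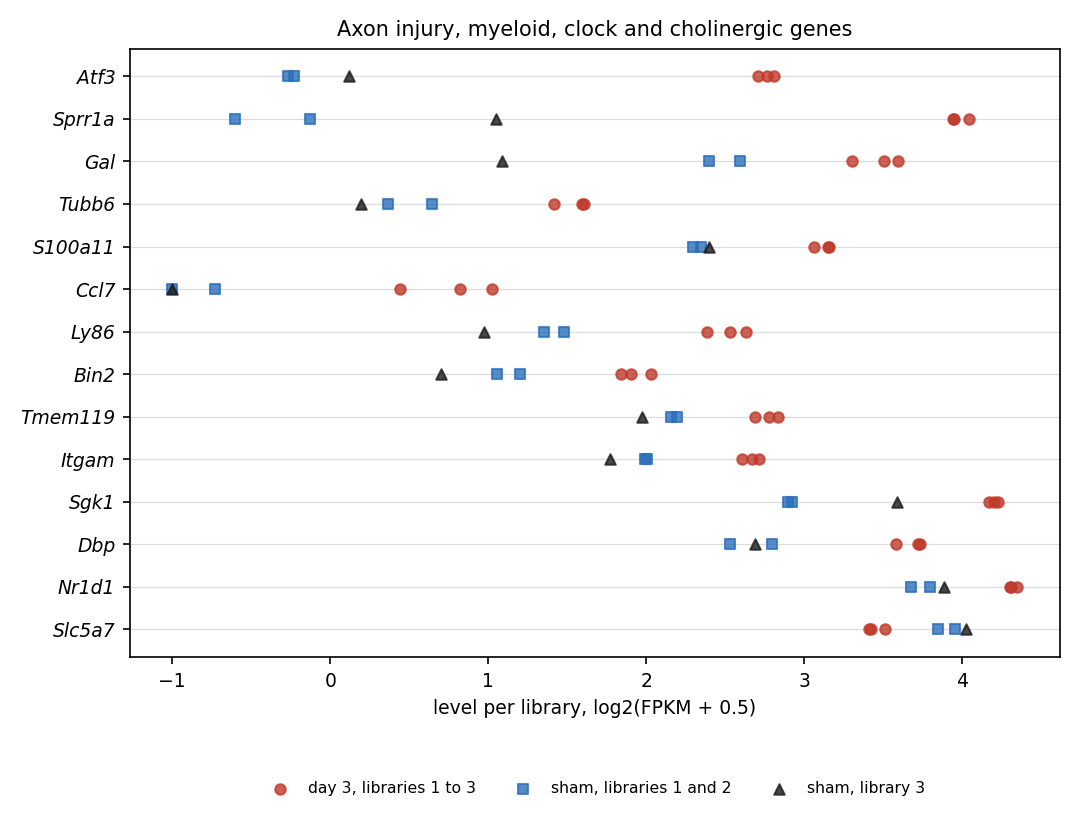
Levels of 14 genes in each of the 6 libraries, on the x axis as log2(FPKM + 0.5), 1 point per library. Atf3 and Sprr1a show the widest gap between day 3 (circles) and sham (squares and triangle), and for Slc5a7 the day 3 libraries are the lowest.

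Promoters are shown for Sprr1a and S100a11, which hold a binding motif of AP-1, the factor family that Atf3 can join as a dimer partner. The 170 bases before the RefSeq start site (GRCm38.p6) were searched on both strands for TGACTCA, and those of Sprr1a (chr3:92485882-92486051, minus strand) and S100a11 (chr3:93520326-93520495, plus strand) hold it at 2 places each, in capitals, read on the other strand.
Sprr1a: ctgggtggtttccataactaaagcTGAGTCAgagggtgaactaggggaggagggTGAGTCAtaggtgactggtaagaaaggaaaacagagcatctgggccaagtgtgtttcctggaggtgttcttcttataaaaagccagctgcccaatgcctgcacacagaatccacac
S100a11: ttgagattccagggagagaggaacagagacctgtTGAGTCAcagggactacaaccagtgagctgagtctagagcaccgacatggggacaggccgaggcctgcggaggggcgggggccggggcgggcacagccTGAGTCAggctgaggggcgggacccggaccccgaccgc
In Sprr1a the matches begin 146 and 116 bases before the start site, and in S100a11 at 136 and 38. Of the 6 called axon injury genes with an entry in the promoter table, 1 (Sprr1a) holds TGACTCA and 0 hold TGACGTCA, the cyclic AMP response element; 3.69% and 1.65% of 27025 genes hold them in the same window. S100a11, of the S100 and annexin list, is not among the 6. A match is a description of the letters, not a site of binding.

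Microglial genes were higher on day 3 by modest amounts. Of 12 tested genes of resting microglia, 6 rose and 0 fell without sham library 3, against 1.86% and 1.43% of all genes tested. Their median difference was 0.39 (0.48 with all 6 libraries). Tmem119, a surface protein that marks resident microglia, was at 5.95, 6.62 and 6.35 FPKM on day 3 and at 3.95, 4.08 and 3.43 FPKM in sham. The groups did not overlap, and the difference was 0.59 ± 0.06 without sham library 3 (limma adjusted p = 0.0142) and 0.66 ± 0.10 with it (adjusted p = 0.561). Values of all 6 libraries did not overlap, with day 3 higher, for 10 of the 12 genes, against 13.4% of all genes tested. Others that rose without sham library 3 were the chemokine receptor Cx3cr1 (0.41, 0.50), Fcrls (0.58, 0.80), Olfml3 (0.69, 0.85) and the growth factor receptor Csf1r (0.40, 0.57).

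Activation genes of microglia gave a like count. Of 12 tested, 5 rose and 0 fell without sham library 3, median 0.30 (0.34 with all 6). Itgam, the CD11b integrin subunit, was at 6.07, 5.59 and 5.87 FPKM on day 3 and at 3.52, 3.48 and 2.91 FPKM in sham. Bin2 was at 3.07, 3.25 and 3.58 against 1.80, 1.58 and 1.13 FPKM. Both were higher in every day 3 library than in any sham library, with differences of 0.66 ± 0.05 and 0.79 ± 0.08 without sham library 3 (0.74 and 0.94 with it). The phagocytic receptor Trem2 (0.51, 0.78), its signalling partner Tyrobp (0.49, 0.80) and the lipid carrier Apoe (0.18, 0.23) made up the rest.

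All 3 chains of C1q, the complement component that starts the classical cascade and tags synapses, rose without sham library 3. C1qb was at 38.8, 37.5 and 37.6 FPKM on day 3 and at 25.3, 26.5 and 17.3 FPKM in sham. The differences were those of C1qa (0.46, 0.53), C1qb (0.54, 0.73) and C1qc (0.58, 0.80), and 3 of the 8 tested complement genes passed, with a list median of 0.40 (0.47 with all 6). Phagocytic and lysosomal genes gave 5 higher and 0 lower of 17 (median 0.28; 0.38 with all 6): the Fc receptor Fcgr3 (0.68, 0.46), the cathepsins Ctss (0.47, 0.40), Ctsd (0.17, 0.24) and Ctsb (0.097, 0.17), and Laptm5 (0.47, 0.57). Fcgr3 was at 6.14, 5.71 and 5.56 FPKM on day 3 and at 3.51, 3.36 and 5.69 FPKM in sham, so sham library 3 lay within the day 3 range for this gene.

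Ly86, the MD-1 protein that pairs with the receptor Cd180 on myeloid cells, was at 5.28, 5.68 and 4.73 FPKM on day 3 and at 2.06, 2.28 and 1.46 FPKM in sham. Its difference was 1.100 ± 0.09 without sham library 3 (limma adjusted p = 0.00869) and 1.25 ± 0.16 with it (adjusted p = 0.334). Ifi30, a thiol reductase of antigen processing, was at 5.204, 4.67 and 6.10 against 2.06, 2.32 and 2.66 FPKM. Ifi30 (1.11, 1.03) passed without sham library 3, and in both genes every day 3 library lay above every sham library. Ccl7, a chemokine that draws monocytes, was at 1.26, 0.860 and 1.54 FPKM on day 3; in sham it was at 0.102 FPKM in library 1 and listed at 0 in the others. Among 8 tested chemokines Ccl7 (1.63, 1.67) rose and Cx3cl1 (-0.19, 0.084) fell without sham library 3. None of 11 cytokine genes and none of 9 antigen presentation genes passed in either limma fit; with all 6 libraries 2 and 0 of them were higher at an unadjusted p below 0.05.

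Markers of monocytes and of macrophages other than microglia (Ms4a7, Mrc1, Cd163, Lyve1, F13a1, Ccr2, Ly6c2 and Plac8) did not reach the level filter. Summed over 8 such genes they came to 1.30, 1.03 and 0.809 FPKM on day 3 and to 1.33, 0.914 and 0.766 FPKM in sham, so the ranges overlapped. Neutrophil markers, of which 4 of 9 were tested, summed to 9.60, 9.14 and 8.13 FPKM on day 3 and to 5.23, 5.44 and 9.09 FPKM in sham. Lcn2, the iron-binding lipocalin that neutrophils and reactive astrocytes both make, passed without sham library 3, at 1.21, 1.19 and 1.17 against 0.583, 0.348 and 1.11 FPKM; sham library 3 was close to day 3. The part of these cells in the myeloid differences was not tested.

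Haemoglobin genes were among the largest differences. Hba-a1 was at 146, 118 and 118 FPKM on day 3 and at 55.7, 50.2 and 78.5 FPKM in sham, a difference of 1.25 ± 0.11 without sham library 3 (limma adjusted p = 0.012) and 1.06 ± 0.19 with it (adjusted p = 0.57). Hba-a2 (1.19, 0.95), Hbb-bs (1.21, 0.97) and Hbb-bt (1.13, 0.86) passed too without sham library 3; reads of these near-identical copies may be split between them, so their single values are uncertain. Of 5 erythroid genes 4 rose and 0 fell, and their sum was 517, 424 and 424 FPKM on day 3 against 202, 189 and 318 FPKM in sham. Of 11 endothelial genes Ctla2a (0.57, 0.66) rose and Kdr (-0.62, -0.43) and Cldn5 (-0.33, 0.028) fell without sham library 3, with the list median changing sign between the fits (-0.04; 0.05 with all 6). How much blood stayed in the tissue was not tested.

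Some genes of the circadian clock and of its output were higher on day 3. Dbp, a transcription factor driven directly by the clock, was at 11.5, 12.7 and 12.8 FPKM on day 3 and at 6.45, 5.28 and 5.93 FPKM in sham. Its difference hardly depended on sham library 3: 1.01 ± 0.09 without it (limma adjusted p = 0.0133) and 1.01 ± 0.10 with it (adjusted p = 0.168). Nr1d1, the repressor REV-ERB alpha, was at 19.2, 19.9 and 19.3 against 12.2, 13.4 and 14.2 FPKM. Of 17 clock genes 7 rose and 0 fell without sham library 3, against 1.86% and 1.43% of all genes, and the median was 0.19 (0.13 with all 6). Those that rose were Dbp, Nr1d1 (0.59, 0.54), Ciart (0.51, 0.61), Per1 (0.31, 0.57), Per3 (0.29, 0.25), Nr1d2 (0.25, -0.0056) and Tef (0.24, 0.13). Nr1d2 and Tef were higher in sham library 3 (23.6 and 25.2 FPKM) than on day 3 (16.05 to 16.6 and 23.6 to 24.02 FPKM). Not all members went the same way: with all 6 libraries 10 of the 17 differences were above 0, and Arntl, which encodes BMAL1, and Npas2, both named after their values were seen, had non-overlapping values with day 3 lower. Arntl was at 1.64, 1.83 and 1.89 FPKM on day 3 and at 2.48, 2.38 and 2.72 FPKM in sham (adjusted p = 0.0732 without sham library 3, limma). The labels do not state the hour at which tissue was taken.

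Some promoters of the called clock genes hold the E-box CACGTG, the site by which the CLOCK and BMAL1 pair binds, and those are shown. In Ciart (chr3:95882229-95882398, minus strand) it stands at 3 places, in capitals, and in Per1 (chr11:69098779-69098948, plus strand) and Tef (chr15:81802503-81802672, plus strand) at 1.
Ciart: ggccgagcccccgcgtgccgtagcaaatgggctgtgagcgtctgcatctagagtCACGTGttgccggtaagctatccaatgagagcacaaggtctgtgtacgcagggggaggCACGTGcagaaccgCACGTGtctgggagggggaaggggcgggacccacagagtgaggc
Per1: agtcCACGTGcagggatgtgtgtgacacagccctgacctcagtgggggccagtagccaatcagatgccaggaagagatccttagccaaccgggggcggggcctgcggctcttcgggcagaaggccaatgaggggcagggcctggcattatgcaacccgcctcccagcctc
Tef: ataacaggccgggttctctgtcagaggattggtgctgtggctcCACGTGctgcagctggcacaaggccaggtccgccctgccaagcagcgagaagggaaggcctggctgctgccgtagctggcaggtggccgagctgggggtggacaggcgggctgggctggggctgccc
So 3 of the 7 called clock genes hold an E-box within 170 bases before the start site, and 5.35% of 27025 genes do. The other called clock genes, Dbp and Nr1d1 among them, hold none there. A part of the E-box in these differences was not tested.

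Genes that glucocorticoid hormone is known to induce gave 3 higher and 0 lower of 14 (median 0.18 without sham library 3; 0.08 with all 6). Sgk1, a kinase induced by the hormone, was at 17.5, 17.9 and 18.2 FPKM on day 3 and at 7.08, 6.94 and 11.5 FPKM in sham. All day 3 libraries lay above all sham libraries, and the difference was 1.29 ± 0.03 without sham library 3 (limma adjusted p = 0.000241) and 1.06 ± 0.19 with it (adjusted p = 0.57). The metal-binding metallothioneins Mt1 (0.33, 0.27) and Mt2 (0.32, 0.34) rose without sham library 3. Mt2 was at 255, 254 and 256 against 203, 204 and 195 FPKM.

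Interferon response genes were lower on day 3 than in sham libraries 1 and 2, while sham library 3 varied by gene, from below day 3 to well above it. These genes are switched on by interferon through factors such as Stat2 and Irf9 and restrict viruses. Of 18 tested, 12 fell and 0 rose without sham library 3, with a median difference of -0.77. With all 6 libraries 0 passed by limma, 9 were lower at an unadjusted p below 0.05, and the median was -0.42. The share of 12 in 18 stands beside 1.43% of all genes called lower.

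Ifit1, which binds viral RNA, was at 1.35, 1.29 and 1.20 FPKM on day 3 and at 4.23, 4.42 and 1.65 FPKM in sham. The difference was -1.44 ± 0.06 without sham library 3 (limma adjusted p = 0.00139) and -1.05 ± 0.33 with it (adjusted p = 0.728). Ifit3 was at 5.94, 5.99 and 6.10 against 13.5, 14.7 and 6.64 FPKM. In both genes sham library 3 was just above day 3 and far below the other sham libraries. Isg15, a ubiquitin-like protein, was at 3.09, 2.21 and 2.44 FPKM on day 3 and at 6.28, 5.94 and 0.653 FPKM in sham, so that the third sham library was the lowest of all. Its difference was -1.11 ± 0.13 without sham library 3 (adjusted p = 0.0196) and -0.27 ± 0.69 with it (adjusted p = 0.867).

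The master regulator Irf7 was at 0.947, 0.924 and 0.527 FPKM on day 3 and at 3.00, 2.58 and 0.731 FPKM in sham. Oasl2, which senses double-stranded RNA, kept the groups apart: 0.947, 0.985 and 1.06 against 2.29, 2.27 and 1.68 FPKM, a difference of -0.89 ± 0.07 without sham library 3 (limma adjusted p = 0.00925) and -0.78 ± 0.13 with it (adjusted p = 0.57). The signal carriers Stat2 (-0.42, -0.29) and Irf9 (-0.40, -0.31) and the tether Bst2 (-0.95, -0.37) fell too in that fit. Of the 12 that fell, 6 had a day 3 mean below sham library 3 and 6 above it. Over all 18, 8 had non-overlapping values with day 3 lower, against 7.49% of all genes tested. Outside the list, the 15 lower genes of largest difference with non-overlapping values and at least 1 FPKM in a group mean also held H2-T24 (-0.93, -0.80), Irgm2 (-0.79, -0.60), Trim30a (-0.72, -0.60), Slfn2 (-0.68, -0.52), Trim25 (-0.58, -0.42), Slfn5 (-0.55, -0.50), Gvin1 (-0.54, -0.46) and Rnf213 (-0.45, -0.37). Not all genes named after interferon fell without sham library 3. Ifi30 (1.11, 1.03) and Ifitm2 (0.47, 0.73), outside the list, rose, while Ifitm3 (-0.51, 0.0071) fell.

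**Figure D3:**
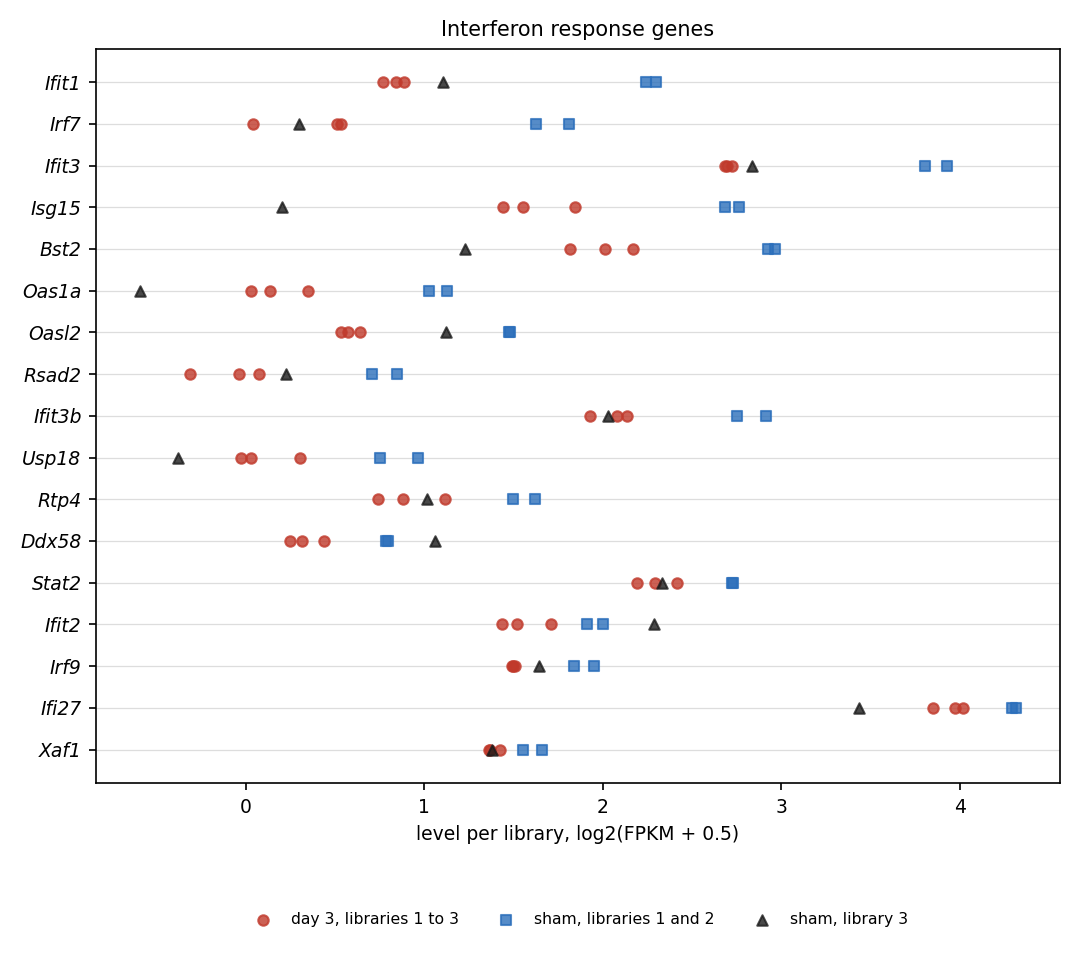
Levels of 17 of the 18 tested interferon response genes in each library, as log2(FPKM + 0.5), ordered by the difference without sham library 3. Sham libraries 1 and 2 (squares) lie above the day 3 libraries (circles) in every row, while sham library 3 (triangle) lies among or below the day 3 libraries for many genes.

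The GAAANNGAAA core of the interferon response element, searched after the values were seen, stands in 6 of the 10 called interferon genes with a promoter entry (Bst2, Ifit1, Ifit3, Ifit3b, Isg15 and Oas1a), against 2.17% of 27025 genes. The promoters of Ifit1 (chr19:34640719-34640888, plus strand), with 2 matches on the other strand, and Isg15 (chr4:156200819-156200988, minus strand), with 3 overlapping matches, are shown with the matches in capitals.
Ifit1: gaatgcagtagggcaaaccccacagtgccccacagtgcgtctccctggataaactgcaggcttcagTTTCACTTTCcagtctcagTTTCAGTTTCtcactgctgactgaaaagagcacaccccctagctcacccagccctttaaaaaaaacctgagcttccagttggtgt
Isg15: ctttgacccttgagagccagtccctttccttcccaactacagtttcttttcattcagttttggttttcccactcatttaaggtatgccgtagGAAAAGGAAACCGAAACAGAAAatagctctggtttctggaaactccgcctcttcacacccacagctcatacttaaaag

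Outside the axon injury genes, most members of the neuronal lists did not pass in either fit. Slc5a7, the choline transporter that feeds acetylcholine synthesis in motor neurons, was at 10.2, 10.1 and 10.9 FPKM on day 3 and at 14.99, 13.9 and 15.8 FPKM in sham. All day 3 libraries were lower than all sham libraries, with a difference of -0.45 ± 0.05 without sham library 3 (limma adjusted p = 0.0189) and -0.49 ± 0.08 with it (adjusted p = 0.57). Of 15 cholinergic and motor neuron genes 3 fell and 0 rose without sham library 3: Slc5a7 and the neurofilament genes Nefl (-0.10, 0.10) and Nefm (-0.12, -0.0021). None of 15 genes of inhibitory transmission and none of 14 glutamate receptor genes passed in either limma fit; with all 6 libraries 0 and 1 of them were lower at an unadjusted p below 0.05. Among 14 peptide and opioid genes of the dorsal horn the opioid precursors Penk (0.20, 0.21) and Pdyn (0.27, 0.40) rose, and Penk was at 97.5, 97.4 and 102 FPKM on day 3 against 85.4, 86.0 and 85.5 FPKM in sham. Of 17 ion channel genes Kcna1 (-0.21, -0.55) and Hcn2 (-0.096, 0.0061) fell without sham library 3. Rgs6, a regulator of G protein signalling, was at 2.68, 2.58 and 2.49 against 5.01, 5.55 and 7.397 FPKM, and fell in that fit (-0.91, limma adjusted p = 0.00641; -1.06 with all 6 libraries, adjusted p = 0.433).

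Oligodendrocyte genes were lower against sham libraries 1 and 2. Of 14 myelin genes 10 fell and 0 rose without sham library 3, against 1.43% and 1.86% of all genes, with a median of -0.17. With all 6 libraries 0 passed by limma and the median was -0.05. At an unadjusted p below 0.05 by limma 3 were lower, against 1.56% of all genes. Gjc3, a connexin of myelinating cells, was at 32.0, 32.0 and 32.0 FPKM on day 3 and at 42.0, 40.7 and 44.9 FPKM in sham, with no overlap (-0.36, -0.40). Of the 10 myelin genes that fell, 5 kept their sign with all 6 libraries and 3 had a day 3 mean below sham library 3. The precursor gene Gpr17, a receptor of cells about to myelinate, was at 11.8, 11.7 and 11.9 against 23.9, 23.1 and 9.66 FPKM, a difference of -0.97 ± 0.03 without sham library 3 (limma adjusted p = 0.000343) and -0.55 ± 0.34 with it (adjusted p = 0.728). Of 10 precursor genes Gpr17, Olig1 (-0.32, 0.063) and Olig2 (-0.32, -0.25) fell without sham library 3. Sterol and fatty acid genes gave 5 lower and 0 higher of 19, and their median was -0.12 without sham library 3 and 0.04 with all 6 libraries, or -0.01 after rescaling to TPM.

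Astrocyte genes moved in both directions. Among 12 reactive astrocyte genes Gfap, Serpina3n and Lcn2 rose without sham library 3. Gfap, the intermediate filament of astrocytes, was at 358, 359 and 357 FPKM on day 3 and at 344, 338 and 296 FPKM in sham, a difference of only 0.07 (adjusted p = 0.0491), and its sign turned under quantile scaling with all 6 libraries (-0.02; 0.14 without such scaling). Serpina3n, a protease inhibitor, was at 33.1, 33.1 and 34.5 against 26.01, 26.8 and 24.1 FPKM, a difference of 0.34 ± 0.03 without sham library 3 (limma adjusted p = 0.012) and 0.38 ± 0.08 with it (adjusted p = 0.642). Of 11 identity genes the water channel Aqp4 (-0.14, -0.18), the potassium channel Kcnj10 (-0.15, -0.28) and Atp1b2 (-0.10, -0.20) fell and Glul (0.076, -0.18) rose without sham library 3. Glul was at 377, 374 and 372 FPKM on day 3 and at 356, 354 and 609 FPKM in sham, and the list median was -0.07 without sham library 3 and -0.20 with all 6 libraries.

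Ribosomal protein genes were a group with many small rises. Of 78 tested, 40 rose and 0 fell without sham library 3, against 1.86% and 1.43% of all genes, with a median of 0.19. With all 6 libraries 0 passed by limma and the median was 0.31. At an unadjusted p below 0.05 by limma 27 were higher, against 3.36% of all genes. Rps29 was at 170, 172 and 169 FPKM on day 3 and at 127, 133 and 36.9 FPKM in sham (0.39, 0.99), and Rps27a (0.58, 0.64) and Rplp1 (0.23, 0.90) rose too without sham library 3. The ribosomal list was lower in sham library 3 than in the other sham libraries, by a median of -0.44. Of the 40 that rose, 37 lay above sham library 3. Heat shock genes gave 3 lower and 0 higher of 11: the chaperone Hspa5 (-0.35, -0.38), at 42.7, 44.7 and 42.1 against 54.6, 56.0 and 58.6 FPKM, Hspa1b (-0.88, -0.74) and the co-chaperone Bag3 (-0.27, -0.15). None of 17 tested genes of m6A writers, erasers and readers and none of 8 cell cycle genes passed in either limma fit; with all 6 libraries 0 and 2 of them were higher at an unadjusted p below 0.05.

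**Figure D4:**
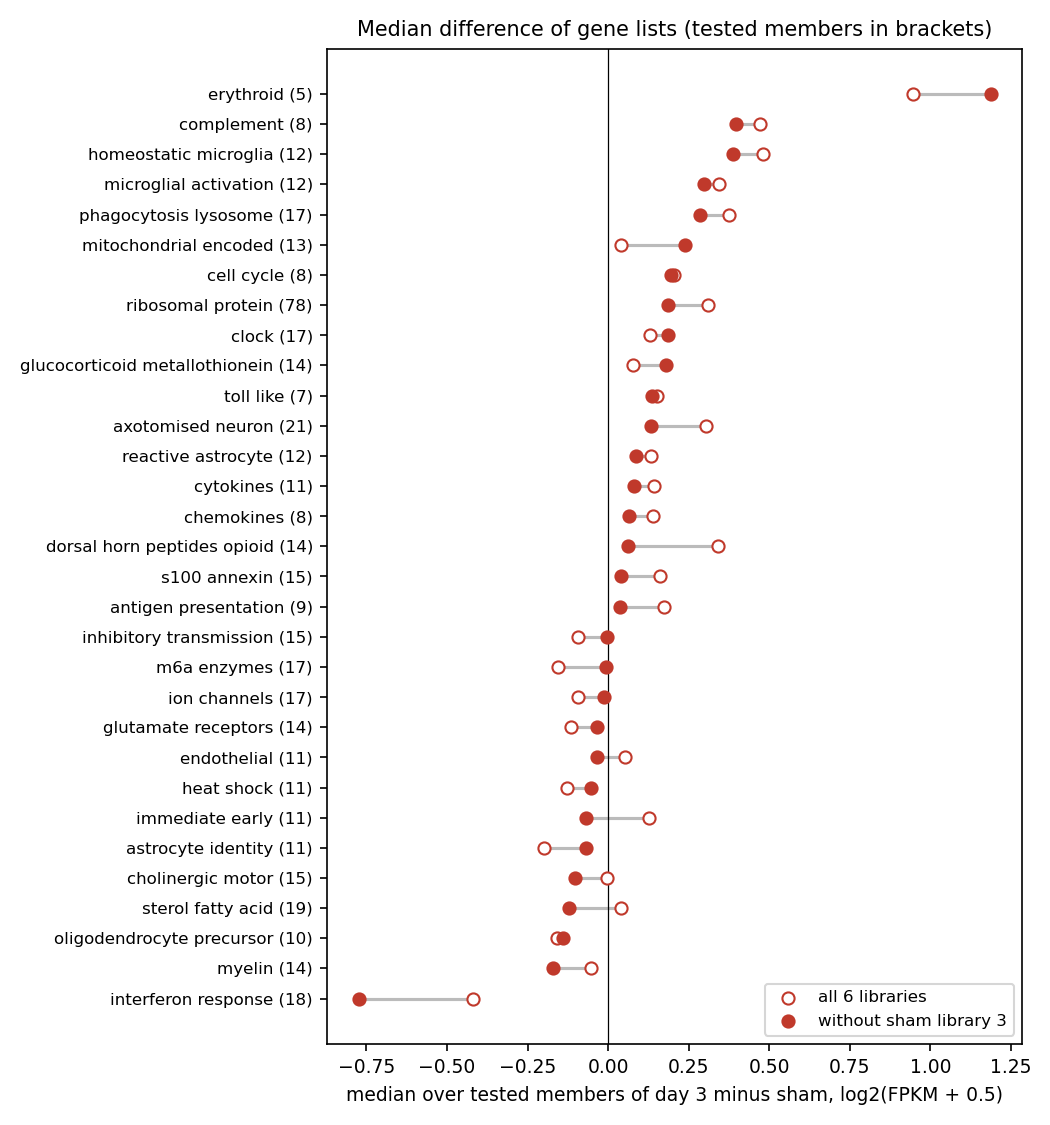
Median day 3 minus sham difference over the tested members of the pathway, erythroid and endothelial lists with at least 5 tested members, in log2(FPKM + 0.5), with all 6 libraries (open) and without sham library 3 (filled). Of the lists drawn, erythroid, complement and resting microglia lie highest and interferon response lies lowest in both fits, while the sterol, immediate early and endothelial lists change sign. Left out of the drawing is the list of RNAs by which sham library 3 stands apart, which lies lower. It has 7 tested members and medians of -0.50 with all 6 libraries and -2.45 without sham library 3.

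The other gene that passed with all 6 libraries was mt-Ts1, a mitochondrial serine tRNA. It was at 52.0, 49.1 and 34.5 FPKM on day 3 and listed at 0 in all 3 sham libraries (limma adjusted p = 0.000203). It overlaps mt-Co1 on the opposite strand, from MT:6870 to MT:6872. On the later days it was listed at 54.7, 33.6 and 0 FPKM (day 7) and at 0, 0 and 43.6 FPKM (day 14), so libraries of 1 group held it at 0 and above 30. It was not among the calls of the fit with all 12 input libraries.

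Single day 3 libraries held transcripts of other organs. Scgb1a1, the secretoglobin of airway club cells, was at 118 FPKM in day 3 library 1 and listed at 0 in the other 5 libraries. Sftpc, the surfactant protein of lung alveoli, was at 23.2 FPKM there and at 0 to 0.320 FPKM in the others. The sum of 14 lung markers was 155, 2.27 and 0.875 FPKM on day 3 and 0.585, 0.588 and 0.264 FPKM in sham. Alb, the serum albumin made in liver, was at 85.4 FPKM in day 3 library 2, at 0.0594 and 3.09 FPKM in day 3 libraries 1 and 3, and at 29.5, 4.99 and 0.0526 FPKM in sham. The sum of 19 liver markers (without transferrin, which oligodendrocytes express) was 2.54, 264 and 21.5 FPKM on day 3 and 77.9, 52.5 and 1.33 FPKM in sham. Lung transcripts thus marked 1 day 3 library most, and liver transcripts were highest in another and also present in sham libraries 1 and 2. None of the lung or liver markers passed in either fit.

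**Figure D5:**
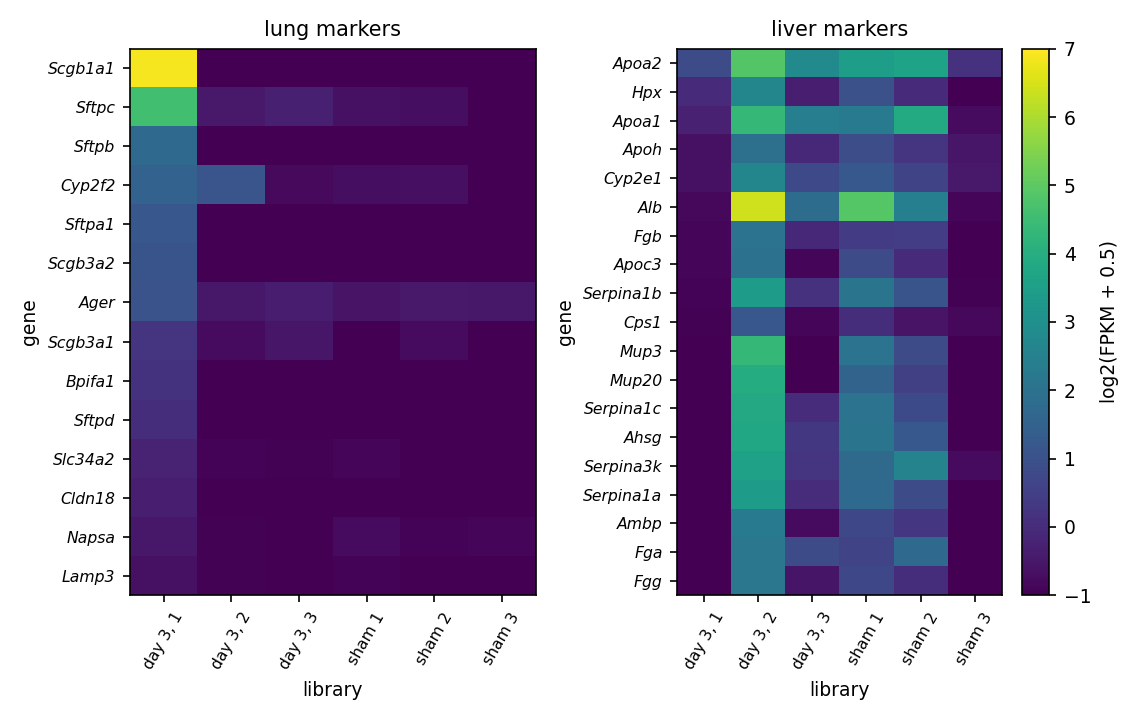
Levels of 14 lung markers (left) and 19 liver markers (right) in the 6 libraries, coloured by log2(FPKM + 0.5). Lung markers are highest in day 3 library 1, with Cyp2f2 also up in day 3 library 2 (2.35 and 1.67 FPKM); liver markers are highest in day 3 library 2, lower in sham libraries 1 and 2, and near the bottom of the scale in day 3 library 1 and sham library 3.

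Some of the leading differences also passed in fits without those libraries and others did not. Without sham library 3 and day 3 library 1, Sprr1a passed with a limma adjusted p of 0.00769, Sgk1 with 0.00313, S100a11 with 0.0165 and Ifit1 with 0.0113. Without sham library 3 and day 3 library 2 they passed with 0.0055, 0.00339, 0.0246 and 0.0126. Dbp had 0.0585 and 0.0557 and Slc5a7 0.0809 and 0.0688 in these smaller fits, past the threshold in neither, as had Bin2 with 0.0722 and 0.0673. Gal (0.0809 and 0.0266) and Ly86 (0.0657 and 0.0286) passed by limma only in the fit without day 3 library 2. Atf3 had adjusted p-values of 0.00313 and 0.00252 by limma.

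N6-methyladenosine peaks, given as 1 list per group with the authors' own fold enrichment, are set beside these genes as a description, since they allow no test between groups. At least 1 peak was listed on day 3 for 78.5% of all genes tested, for 69.6% of the 289 higher and for 84.7% of the 222 lower genes, and in sham for 67.9%, 54.0% and 69.8%. The level of these genes differed, with median means of 4.50, 35.9 and 14.8 FPKM for all, higher and lower genes. Sprr1a, Gal and Ccl7 had 1 peak each on day 3 and 0 in sham, with highest fold enrichments of 6.17, 1.94 and 2.23. Atf3 had 0 on day 3 and 1 in sham, with a fold enrichment of 3.48. Sgk1 had 2 on day 3 (highest fold enrichment 11.7) and 1 in sham (3.88).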

How the data were processed

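Poly(A)-selected input RNA of mouse spinal cord was sequenced, per the labels' protocols, with second strands marked by dUTP. The authors deposited FPKM per gene and library, per the file headers, and 1 m6A peak list per group with a fold enrichment as a ratio of enriched over input; HISAT2, StringTie, edgeR and ChIPseeker are named in the submitters' processing notes without versions. The genome build is not given in the sources used here; of 26215 symbols also in RefSeq GRCm38.p6, 99.92% overlapped the gene of that name. Libraries were grouped by their labels. Genes with a mean of at least 0.5 FPKM over the 6 libraries were fitted as log2(FPKM + 0.5) with limma 3.58.1 (lmFit, eBayes with trend; R 4.3.3), with Benjamini-Hochberg adjustment over all genes tested and a threshold of 0.05. Depth is unknown, so no counting error is given, and precision comes from the spread between libraries.

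The genes described, the 46 gene lists and the tests were chosen with earlier results of these data known. Named genes were those past the threshold with all 6 libraries; the 15 higher and 15 lower of largest difference among calls without sham library 3, with non-overlapping values, at least 1 FPKM in a group mean and no predicted name; list members past either threshold; RNAs by which sham library 3 stands apart; and lung and liver markers. The 170-base promoter window and the motif GAAANNGAAA were chosen after the values were seen. Alternatives covered pseudocounts, filters, scalings, fits of more libraries, a replicate block and left-out libraries. The steps were tested on simulated data. Some genes are not reported here.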

Additional observations from a re-analysis of the deposited data

How the results depend on the processing

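The counts of 2 higher and 0 lower genes of the 6-library test were the same with pseudocounts of 0.1 and 1, no filter or a filter of 5 FPKM, rescaling to TPM, median-of-ratios or quantile scaling, robust eBayes and eBayes without trend; under the filter of 5 FPKM Atf3, with a lower mean, was not tested. Leaving out each library in turn gave 1 to 289 higher and 0 to 222 lower genes, the upper ends without sham library 3. Median-of-ratios scaling without sham library 3 gave 233 higher and 274 lower, a share of higher calls of 46.0% against 56.6%. Array weights gave 201 and 140. The fit of 12 libraries gave 8 and 1, without day 7 library 3 29 and 11, without sham library 3 18 and 9, and without both 623 and 479, with 479 genes shared with the 511 calls (93.7% of those and 43.5% of the 1102). Averaging near-identical libraries gave 0 higher and 0 lower. An unadjusted p below 0.05 with a log2 difference of at least 1 gave 28 and 11. Added after the data were seen, leaving out sham library 3 with day 3 library 1 gave 31 and 26, and with day 3 library 2 57 and 55. A replicate block gave 1 higher and 0 lower with all libraries and 9 and 6 without sham library 3. Deviations of same-numbered libraries from their group means correlated at -0.11, 0.07 and 0.09. The sham mean holds sham library 3, which stands apart, so these correlations cannot show whether the numbers pair the libraries. The cause of the losses with the replicate block was not tested.

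Of 94 named genes followed through the settings, signs turned for the 10 that follow. Others named above but outside those 94 turned too, such as Gm23935 (-2.93 without sham library 3, 0.72 with all 6 libraries), Ifitm3 (-0.51, 0.0071) and Alb (-1.21, 0.31). Fits of the other groups' libraries without sham library 3 gave the same value as the fit of 5. Cldn5 was at 0.028 with all 6 libraries and at -0.33 without sham library 3, -0.023 after rescaling to TPM, -0.0035 with median-of-ratios scaling of all 6, -0.35 with median-of-ratios scaling and no sham library 3, -0.32 with array weights, -0.36 without sham library 3 and day 3 library 1, -0.33 without sham library 3 and day 3 library 2 and -0.32 with the replicate block and no sham library 3, and ranged over all fits with libraries left out from -0.36 to 0.23. Cx3cl1 was at 0.084 with all 6 libraries and at -0.19 without sham library 3, -0.20 with median-of-ratios scaling and no sham library 3, -0.18 with array weights, -0.19 without sham library 3 and day 3 library 1, -0.19 without sham library 3 and day 3 library 2 and -0.19 with the replicate block and no sham library 3, and ranged over all fits with libraries left out from -0.20 to 0.22. Gfap was at 0.14 with all 6 libraries and at -0.022 with quantile scaling, and ranged over all fits with libraries left out from 0.054 to 0.18. Glul was at -0.18 with all 6 libraries and at 0.076 without sham library 3, 0.060 with median-of-ratios scaling and no sham library 3, 0.069 with array weights, 0.071 without sham library 3 and day 3 library 1, 0.077 without sham library 3 and day 3 library 2 and 0.080 with the replicate block and no sham library 3, and ranged over all fits with libraries left out from -0.31 to 0.080. Hcn2 was at 0.0061 with all 6 libraries and at -0.096 without sham library 3, -0.048 after rescaling to TPM, -0.026 with median-of-ratios scaling of all 6, -0.099 with quantile scaling, -0.11 with median-of-ratios scaling and no sham library 3, -0.093 with array weights, -0.10 without sham library 3 and day 3 library 1, -0.094 without sham library 3 and day 3 library 2 and -0.092 with the replicate block and no sham library 3, and ranged over all fits with libraries left out from -0.11 to 0.059. Isg15 was at -0.27 with all 6 libraries and at 0.17 without sham library 1, 0.13 without sham library 2 and 0.15 with near-identical libraries averaged, and ranged over all fits with libraries left out from -1.23 to 0.17. Nefl was at 0.10 with all 6 libraries and at -0.10 without sham library 3, -0.12 with median-of-ratios scaling and no sham library 3, -0.096 with array weights, -0.10 without sham library 3 and day 3 library 1, -0.10 without sham library 3 and day 3 library 2 and -0.10 with the replicate block and no sham library 3, and ranged over all fits with libraries left out from -0.12 to 0.20. Nefm was at -0.0021 with all 6 libraries and at 0.0011 without day 3 library 1, 0.0021 without day 3 library 3, 0.060 without sham library 1, 0.053 without sham library 2 and 0.057 with near-identical libraries averaged. Nefm kept its sign at -0.13 without sham library 3 and day 3 library 2, and ranged over all fits with libraries left out from -0.14 to 0.060. Nr1d2 was at -0.0056 with all 6 libraries and at 0.0031 without day 3 library 3, 0.25 without sham library 3, 0.24 with median-of-ratios scaling and no sham library 3, 0.25 with array weights, 0.26 without sham library 3 and day 3 library 1, 0.24 without sham library 3 and day 3 library 2 and 0.26 with the replicate block and no sham library 3, and ranged over all fits with libraries left out from -0.14 to 0.26. Olig1 was at 0.063 with all 6 libraries and at -0.32 without sham library 3, -0.019 with quantile scaling, -0.33 with median-of-ratios scaling and no sham library 3, -0.30 with array weights, -0.32 without sham library 3 and day 3 library 1, -0.29 without sham library 3 and day 3 library 2 and -0.34 with the replicate block and no sham library 3, and ranged over all fits with libraries left out from -0.34 to 0.25. The cause was not tested. With sham library 3 left out and near-identical libraries averaged, 1 value per group remained and no test could be made.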

Other observations

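Genes that stood out in 1 of the 6 libraries, at 1 FPKM or more there and at least 5 times the level of every other library, numbered 14 and 15 in day 3 libraries 1 and 2 and 4 in day 3 library 3, and 7, 4 and 16 in sham libraries 1 to 3. They need not be absent from the other libraries. The genes of day 3 library 1 included the lung genes Scgb3a2, Sftpa1 and Sftpb and those of day 3 library 2 the liver genes Mup3, Mup20 and Cyp2d9. In sham library 3 the genes that stood out included Ucp1, Plin4 and Fabp4, genes of fat tissue. Acta1, the actin of skeletal muscle, was at 0.843, 4.20 and 0.328 FPKM on day 3 and at 3.98, 0.339 and 0.915 FPKM in sham. Ttr, made in liver and choroid plexus, was listed at 0 in day 3 library 1, at 14.7 and 0.824 FPKM in day 3 libraries 2 and 3, and at 3.76, 2.21 and 0.131 FPKM in sham.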
